A study of Arabidopsis thaliana with 12 samples.

Results

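Arabidopsis thaliana carries DNA methylation in 3 sequence contexts, CG, CHG and CHH, where H is any base but G, and this comparison sets the ddm1 mutant against the poliv mutant without heat, with the wild type (wt) as the level that each of them departs from. The material was nuclei of shoot apical stem cells of Col-0 plants, sorted by fluorescence from inflorescence apices at day 28 and analysed by bisulfite sequencing. All lines carry the same stem cell reporter, a red fluorescent histone under the CLV3 promoter, so the sort selects cells in which that promoter is active. ddm1 is the T-DNA allele ddm1-10, poliv is the T-DNA allele nrpda-3 in the gene of the largest subunit of RNA polymerase IV (Pol IV), and each mutant is known here from this 1 allele. The 3 control groups used are ddm1, poliv and wt, each unheated and of 2 libraries, while the heated groups of the same genotypes had 37 °C for 1 day ending at day 7 and were sampled at day 28. The table analysed holds a single pooled value per group, which leaves no replicate error, and every test below compares pooled libraries and not plants.

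A locus entered with at least 50 cytosine calls in ddm1, poliv and wt control in the context concerned, and its level is the share of calls that were methylated. In all, 47902 of the 69873 features in the table passed in at least 1 context and are a transposable element (TE) or a protein-coding gene. They include 7784, 7139 and 20775 of 31189 TEs in CG, CHG and CHH, and 26676, 26635 and 27092 of 27432 genes.

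Pol IV transcribes silent repeats into precursors of 24-nucleotide small RNAs, which guide the methyltransferase DRM2 to new cytosines in every context, a route known as RNA-directed DNA methylation (RdDM). DDM1 is a chromatin remodeller that lets the maintenance enzymes MET1 (CG), CMT3 (CHG) and CMT2 (CHH) reach DNA packed with linker histone H1 in heterochromatin. RdDM is known to act at short TEs and TE edges in chromosome arms, and DDM1 at long TEs around the centromeres.

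Control groups held 48850347, 47449953 and 30597398 CG calls and 222182568, 218394066 and 138837280 CHH calls in ddm1, poliv and wt. Reads of the unmethylated chloroplast genome gave 0.450%, 0.404% and 0.390% CHH in ddm1, poliv and wt, which bounds the share of cytosines left unconverted. The disrupted genes were checked first. DDM1 itself (AT5G66750), for which the annotation lists the synonym CHR1, had a CHG level of 49.5% in ddm1, against 0.44% in poliv and 0.434% in wt, from 2899, 4317 and 2766 calls. NRPD1 (AT1G63020, listed as NRPD1A) had 6.71% CHG in ddm1, against 14.9% in poliv and 0.73% in wt. CHG at DDM1 was thus above wt in ddm1, and CHG at NRPD1 was above wt in both mutants. Methylation does not show whether the genes are expressed.

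TEs lost CG and CHG methylation in ddm1 and kept most of it in poliv, while in CHH the mean over TEs was below wt in both mutants. Mean TE levels in CG were 13.4% in ddm1, 69.6% in poliv and 70% in wt. In CHG they were 9.31% in ddm1, 38.3% in poliv and 41.5% in wt. For CHH the means were 2.23% in ddm1, 2.74% in poliv and 4.73% in wt. The mean differences, ddm1 minus poliv, were -56.2, -28.9 and -0.516 points. In CHH the picture depended on how TEs were averaged. Weighted by calls, CHH was 2.16% in ddm1, 5.08% in poliv and 5.18% in wt, so that poliv was then near wt and the difference between the mutants was -2.91 points.

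Locus by locus, a difference was called where Fisher's exact test (two-sided, Benjamini-Hochberg adjusted below 0.05 within context and locus class) came with at least 20 points in CG or CHG or 10 points in CHH. Of 7784 TEs in CG, 5993 (77%) were lower in ddm1 than in poliv and 10 (0.128%) were higher. Of 7139 TEs in CHG, 4549 (63.7%) were lower and 62 (0.868%) higher. In CHH, 330 (1.59%) of 20775 TEs were lower and 305 (1.47%) higher in ddm1, but without the 10-point minimum 4402 were lower and 1749 higher. With a minimum of 100 calls, 2 TEs were higher in ddm1 in CG and 24 in CHG, and in CHH 191 were higher and 239 lower.

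To sort loci by what they need, those at 20% or more in wt (CG, CHG) or 10% or more (CHH) were taken, and a mutant was said to have lost the mark where its level was at or below 50% of wt and Fisher's exact test against wt passed after adjustment. Loci lost in ddm1 alone are called "only DDM1", those lost in poliv alone "only Pol IV", and the others "both" or "neither". Both mutants are set against the same wt columns, so the 4 counts are descriptions. "Neither" also holds loci with losses smaller than this and loci too shallow to pass, and for the same reason an "only" class holds loci whose level in the other mutant was at or below 50% of wt without passing the test. With loss read from the level alone, the only-Pol IV TEs in CHH number 319 in place of 386.

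In CG, 5727 of 6343 methylated TEs (90.3%) lost the mark in ddm1 and 46 (0.725%) in poliv. This gave 5686 only-DDM1 TEs, 5 only-Pol IV TEs, 41 that lost it in both and 611 in neither. Only-DDM1 TEs had a median CG level of 9.1% in ddm1, against 88.9% in poliv and 88.8% in wt. Poliv was above wt at 2805 of these 5686 TEs and at or below it at the rest. The 611 TEs of the neither class had a median of 51.8% in ddm1, against 85.1% in poliv and 86% in wt, so that most had lost part of their CG methylation in ddm1 without reaching the 50% line. In ddm1, 506 TEs lay between 40% and 60% of their wt level, and in poliv 42 did. At the line itself, AT5TE54295 at 50% of wt counted as lost in ddm1 and AT4TE20255 at 50.1% did not.

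In CHG, 4905 of 5422 methylated TEs (90.5%) lost the mark in ddm1 and 287 (5.29%) in poliv. The classes were 4683 only DDM1, 65 only Pol IV, 222 both and 452 neither. Only-Pol IV TEs had a median CHG level of 35% in ddm1, against 11.3% in poliv and 49.4% in wt. TEs of the both class had 6.21% in ddm1, 11.3% in poliv and 41.2% in wt. Of the 62 TEs called higher in ddm1 than in poliv, 42 were only-Pol IV TEs, 12 lost the mark in neither, 1 in both, and 7 were below 20% in wt. One of these 7, AT3TE08370, had 60.6% CHG in ddm1, against 0.69% in poliv and 0.493% in wt.

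In CHH, similar numbers of TEs lost the mark in each mutant, 1666 of 2324 (71.7%) in ddm1 and 1680 (72.3%) in poliv. More than 50% of the methylated TEs, 1294 or 55.7%, lost it in both, and 372 were only DDM1, 386 only Pol IV and 272 neither. These numbers rest on the 50% line: with loss set at 25% of wt, 842 lost it in both, 378 were only DDM1, 627 only Pol IV and 477 neither. TEs of the both class had a median of 2.53% in ddm1 and 1% in poliv, against 17.8% in wt. Only-Pol IV TEs had 10.4% in ddm1, against 1.51% in poliv and 14.9% in wt, and only-DDM1 TEs had 1.32% in ddm1, against 11.6% in poliv and 13% in wt. At the line, AT5TE28290 had 49.9% of its wt CHH level in ddm1 and AT4TE18150 had 50.1%, and 300 TEs lay between 40% and 60% in ddm1. The choice of TEs at 10% or more in wt control used that column, in which depth was lowest.

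**Figure D1:**
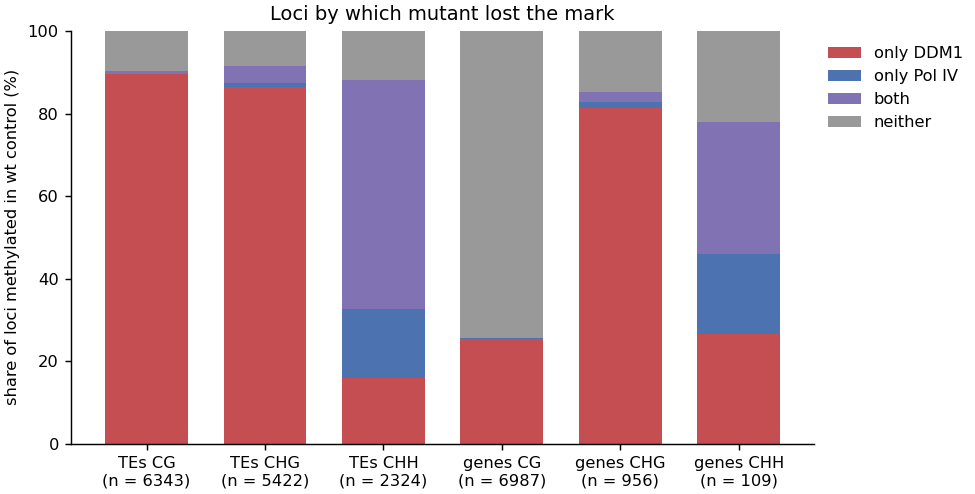
Share of loci methylated in wt control (vertical axis, %) by which mutant lost the mark, for TEs and protein-coding genes in each context, with the number of loci under each bar. Red only-DDM1 loci fill 89.6% of the TE bar in CG and 86.4% in CHG but 16% in CHH, where the purple both class takes 55.7%.

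**Figure D2:**
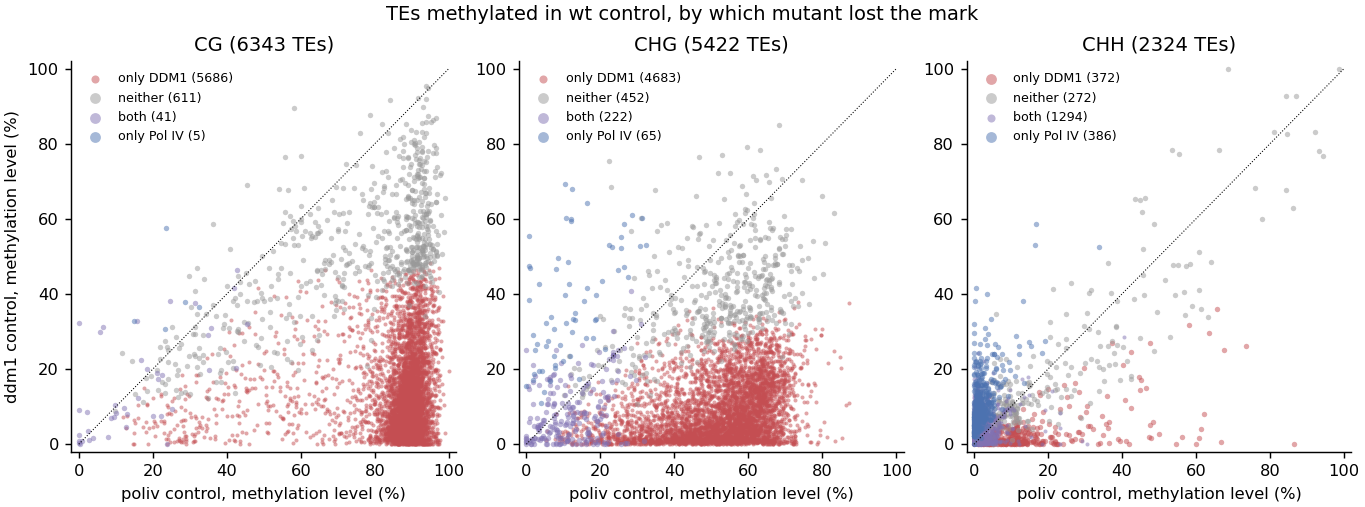
Methylation level of each TE methylated in wt control, in ddm1 (vertical axis, %) against poliv (horizontal axis, %), one panel per context and one point per TE, coloured by class, with the dotted line marking equal levels. In CG and CHG the points sit at the bottom right, and in CHH they spread along both axes.

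The CHH classes also differed in the contexts that had not been used to form them. Only-DDM1 TEs were almost bare of CG methylation in ddm1, with a median of 5.58%, against 89.2% in poliv and 89.3% in wt over the 166 TEs with enough CG calls. That is near the medians of all TEs tested in CG, 7.68% in ddm1, 87.9% in poliv and 87.6% in wt. Only-Pol IV TEs had 39.9% CG in ddm1, against 80.6% in poliv and 90.2% in wt over 91 TEs. Of the 91, 89 were methylated in CG in wt, and 49 of them were only-DDM1 TEs in CG and 35 lost CG in neither mutant. Among 165 only-DDM1 TEs methylated in CG, 160 (97%) were only-DDM1 TEs in CG too, against 89.6% of all TEs methylated in CG.

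In CHG, only-Pol IV TEs had near-equal medians in both mutants, 35.4% in ddm1 and 35% in poliv, against 63.4% in wt over 78 TEs. TEs of the both class had 10.9% in ddm1 and 20% in poliv, against 52.9% in wt over 159. Only-DDM1 TEs had 4.98% in ddm1, against 62.4% in poliv and 63.9% in wt over 152. TEs that lost CHH in neither mutant had 22.4% CHG in ddm1, against 55.8% in poliv and 61.2% in wt over 74. Levels in the 3 contexts come from the same libraries, so these medians are a description.

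**Figure D3:**
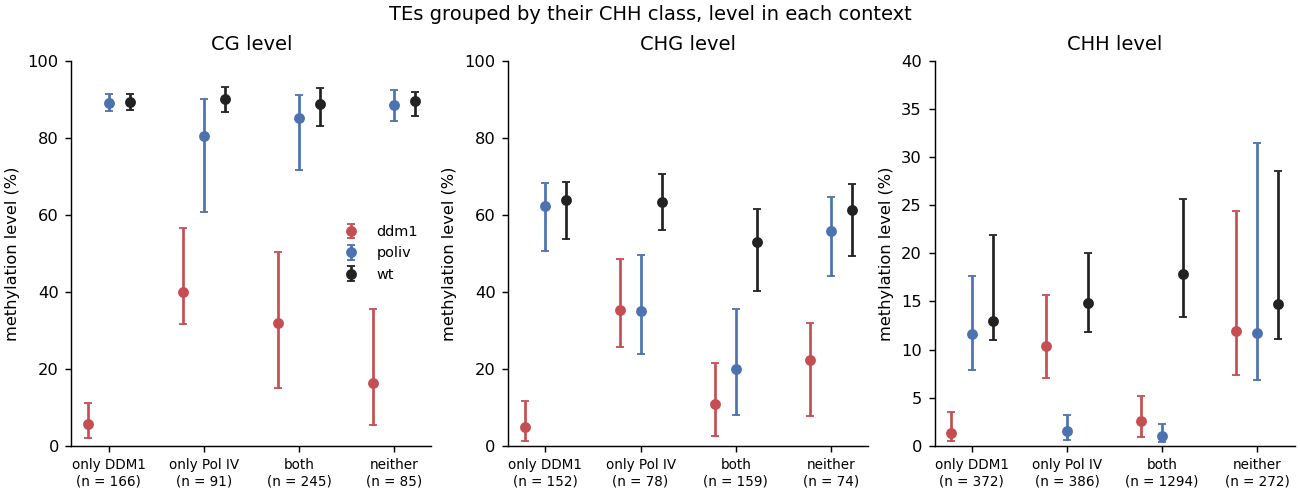
Median methylation level (vertical axis, %, with the 25th to 75th percentile as bars) in ddm1, poliv and wt control for TEs grouped by their CHH class, with a panel for each context and the number of TEs with enough calls below. CG in ddm1 is 5.58% at only-DDM1 TEs and 39.9% at only-Pol IV TEs. The CHH panel shows the values that formed the classes and has its own scale.

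The number of CHH calls of a TE, which rises with its length and its depth, was used to split TEs into quartiles. The split was made separately in each context, over the TEs tested there, so quartiles of different contexts hold different TEs. The lowest quartile had a median of 1002 CHH calls in CG, 1258 in CHG and 353 in CHH, over the 3 groups summed. In CHH, TEs of the lowest quartile had a mean of 2.06% in ddm1 and 1.91% in poliv, against 4.72% in wt. In the highest quartile the mean was 2.41% in ddm1, against 4.82% in poliv and 5% in wt. Of 273 methylated TEs in that quartile, 122 (44.7%) were only-DDM1 TEs and 54 (19.8%) were of the both class, against 114 (15.3%) and 395 (53%) of 745 in the lowest. Only-Pol IV TEs made up between 14.3% and 18.4% of the methylated TEs in every quartile.

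In CHG the gap between poliv and wt was wider in the lowest quartile of that context's own split than in the highest. Mean CHG in the lowest quartile was 7.19% in ddm1, 20.5% in poliv and 26.1% in wt, and in the highest 9.46% in ddm1, 53.1% in poliv and 53.5% in wt. Of the 65 only-Pol IV TEs in CHG, 64 were in the lower 2 quartiles and 1 in the third. In CG the ddm1 mean went down along the quartiles, with 18.6%, 14.9%, 11.8% and 8.22%, while poliv and wt went up. TEs with many calls pass Fisher's exact test more easily, which affects the class counts but not the means. Depth also differed by class: relative to the totals of each group, only-DDM1 TEs had a median of 1.32 times as many CG calls in ddm1 as in poliv, and the both class 0.884 times. The part of this in the levels was not tested.

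**Figure D4:**
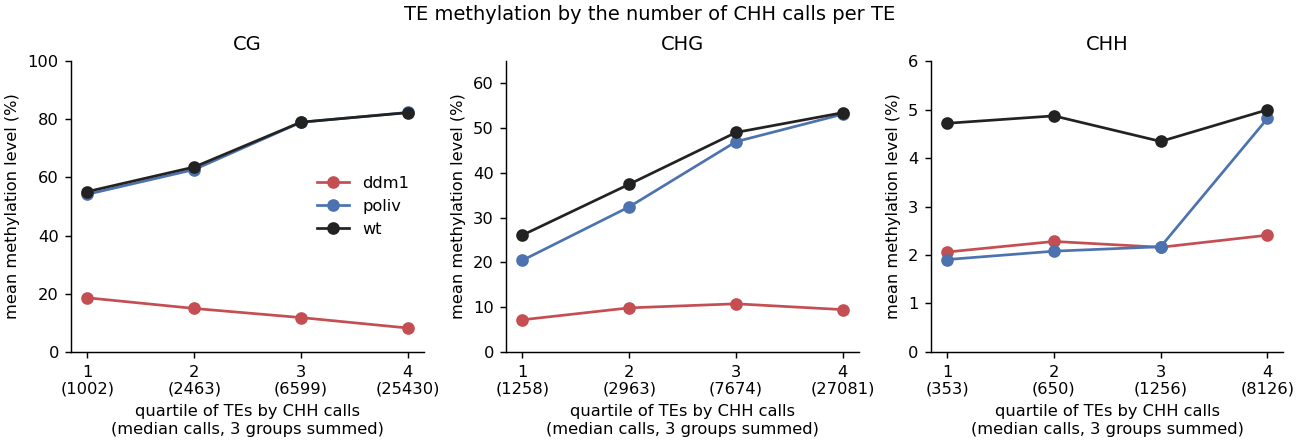
Mean methylation level of TEs (vertical axis, %) in ddm1, poliv and wt control by quartile of the number of CHH calls (horizontal axis, with the median calls of the 3 groups summed), one panel per context with its own scale. Quartiles were formed separately in each context, over the TEs tested there. In CHH the poliv line leaves the ddm1 line in the fourth quartile, where it reaches 4.82% against 2.41% in ddm1.

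Single loci of the only-Pol IV class show how far apart the mutants can be. In CHG, AT1TE52520 had 67.9% in ddm1, 12.2% in poliv and 63.8% in wt, from 190, 196 and 116 calls, with 95% Wilson intervals of 61% to 74.1%, 8.37% to 17.6% and 54.7% to 72%. AT4TE04725 had 55.6% in ddm1 (45.3% to 65.4%), 0.625% in poliv (0.11% to 3.45%) and 73.6% in wt (60.4% to 83.6%). These intervals cover counting error only. In both TEs the ddm1 interval overlapped that of wt and lay above that of poliv. Both were named for a large difference between the mutants, so their distance from poliv follows from that choice. Their class also asks that ddm1 had not lost the mark, so the intervals are a description.

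In CHH, AT4TE32830 had 38.1% in ddm1, 0.256% in poliv and 41.4% in wt, from 302, 390 and 326 calls. AT2TE56035 had 41.5% in ddm1, 0.474% in poliv and 50.9% in wt. AT2TE15380 had 58.6% CHH in ddm1, 16.7% in poliv and 68.8% in wt, but in the heated groups it had 55.6%, 56.8% and 40.7%, and the low poliv value was not seen again. In CG the only such TE among the 10 calls was AT5TE65460, with 57.6% in ddm1, 23.5% in poliv and 73.4% in wt.

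**Figure D5:**
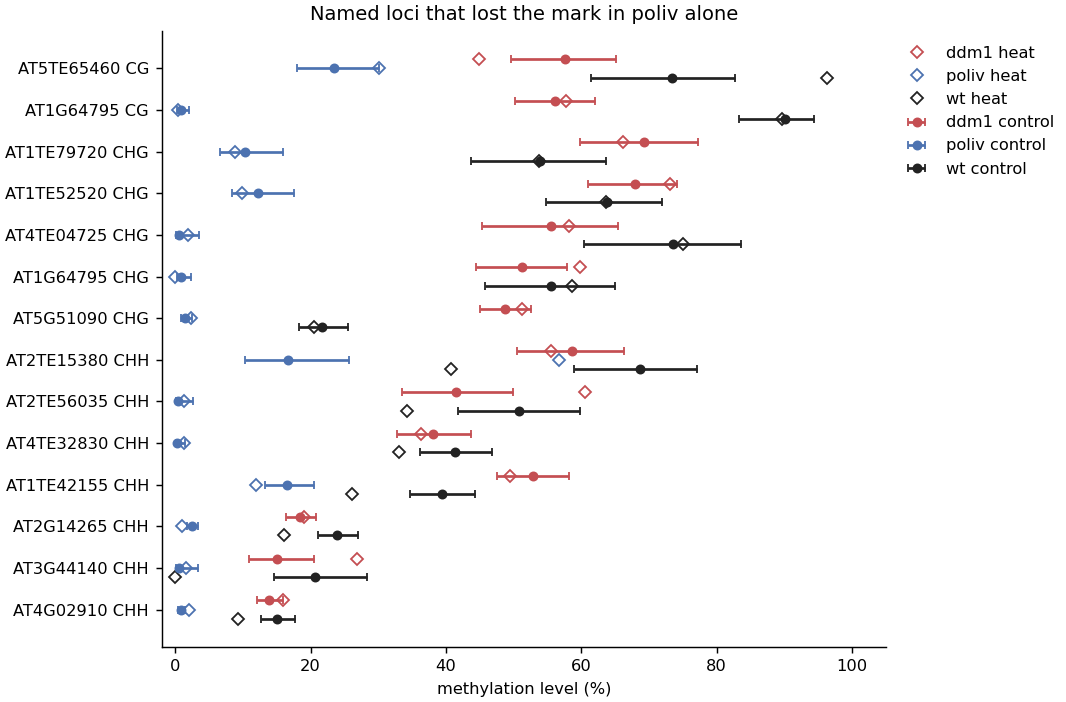
Methylation level (horizontal axis, %) of the named loci of the only-Pol IV class that were called higher in ddm1 than in poliv, one row per locus and context, with control values as filled points with 95% Wilson intervals and heated values as open diamonds. Poliv control lies below 24% in every row, and only AT2TE15380 has poliv heat beside ddm1 heat. At AT3G44140 in CHH, wt had 20.6% in control and 0% in heat, against 1.65% in poliv heat.

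Among only-DDM1 loci, AT4TE14595 had no methylated call among 100 in CG in ddm1, which allows a level of up to 3%, against 97.3% in poliv and 87% in wt from 73 and 54 calls. In CHG, AT1TE67115 had 0% in ddm1 (127 calls, up to 2.36%), against 78.6% in poliv and 83% in wt. The 5 TEs with the most negative CHH differences were all on chromosome 1 and had fewer calls in ddm1 than in poliv. AT1TE42450 had no methylated CHH call among 74 in ddm1, which allows up to 4.05%, against 86.6% in poliv and 83.8% in wt from 299 and 179 calls. AT1TE43045 had 0.613% in ddm1, 66.8% in poliv and 42.7% in wt, so poliv was above wt there. A deeper case was AT3TE63540, from the study's list of TEs with a heat-factor site, with 2.71% CHH in ddm1, 18% in poliv and 17.6% in wt from 17259, 12996 and 8144 calls.

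Some TEs lost almost all methylation in both mutants. AT1TE93275 had 0.306% CG in ddm1, no methylated call among 677 in poliv (up to 0.443%) and 94.4% in wt. AT5TE10390 had 0.976% CHH in ddm1, 0.755% in poliv and 84.8% in wt, but the wt value rests on 66 calls and was 47.5% in wt heat. At the other end, AT3TE02240 kept CHG in both, with 70.6% in ddm1, 69% in poliv and 72.4% in wt from 704, 664 and 449 calls. In CG, AT1TE39630 had 95.3% in ddm1, 93.8% in poliv and 95.5% in wt, with CHG levels of 1.07% or less in each group. The TEs with the highest CHH levels in all 3 groups, among them AT1TE76610 with 83.2% in ddm1, 92% in poliv and 88.5% in wt, had levels far above the CHH medians of any class.

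Protein-coding genes were called in far smaller shares than TEs, mostly lower in ddm1 in CG and CHG. Mean gene levels in CG were 8.67% in ddm1, 14.3% in poliv and 13.9% in wt, and 1608 of 26676 genes (6.03%) were lower in ddm1 than in poliv and 2 (0.0075%) higher. In CHG the means were 1.47%, 2.14% and 2.32%, with 745 of 26635 genes (2.8%) lower and 77 (0.289%) higher in ddm1. The typical gene went the other way in CHG, with medians of 0.614% in ddm1, 0.406% in poliv and 0.391% in wt, and without the 20-point minimum 3636 genes were higher and 1090 lower in ddm1. Chloroplast reads gave 0.409% CHG in ddm1, 0.355% in poliv and 0.345% in wt, and the part of this background in the medians was not tested. In CHH the means were 0.55% in ddm1, 0.572% in poliv and 0.628% in wt. The CHH medians were 0.403%, 0.365% and 0.353%, each below the chloroplast CHH level of its group. In CHH, 17 of 27092 genes (0.0627%) were lower and 9 (0.0332%) higher in ddm1. After scaling the statistic for the spread between heated and control columns, 12 lower and 3 higher calls were left. Weighted by calls, the ddm1 minus poliv differences in CHG and CHH changed sign, to 0.225 and 0.0223 points, against -0.671 and -0.0224 unweighted.

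Most genes methylated in CG kept it in both mutants. Of 6987 genes at 20% or more CG in wt, 1783 (25.5%) lost it in ddm1 and 18 (0.258%) in poliv, and 5196 were in neither class, with medians of 26.8% in ddm1, 32.8% in poliv and 32.4% in wt. In CHG, 801 of 956 genes (83.8%) lost the mark in ddm1 and 36 (3.77%) in poliv. In CHH, 64 of 109 genes (58.7%) lost it in ddm1 and 56 (51.4%) in poliv. These were 29 only-DDM1 genes, 21 only-Pol IV genes, 35 of the both class and 24 of the neither class.

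The only-Pol IV gene called higher in ddm1 in CG was AT1G64795, which overlaps AT1G64790 in the annotation. Its CG level was 56.2% in ddm1, 0.826% in poliv and 90.2% in wt, and its CHG level was 51.2%, 0.806% and 55.6%. AT5G51090 had 48.8% CHG in ddm1, 1.4% in poliv and 21.6% in wt, so ddm1 was above wt. In CHH, AT2G14265 had 18.5% in ddm1, 2.43% in poliv and 23.9% in wt, and AT4G02910 had 13.9%, 0.781% and 15%. The 21 only-Pol IV genes in CHH include the auxin response factors ARF12 and ARF20, with 8.87% and 7.95% in ddm1, 3.54% and 4.5% in poliv and 11% and 11.3% in wt. ARF12 and ARF20 are close copies, and reads may be split between them. PRE5, which encodes a small helix-loop-helix protein, had 13.4% in ddm1, 6.34% in poliv and 19.6% in wt. The differences, ddm1 minus poliv, were 5.34, 3.45 and 7.05 points in ARF12, ARF20 and PRE5, below the minimum for a call. In the heated groups ARF12 had 9.28% in ddm1, 4.3% in poliv and 8.07% in wt. ARF20 had 9.4%, 5.07% and 9.88% there, and PRE5 had 9%, 5.46% and 10%. Poliv was thus above the line for loss in heat in each gene, and wt was below the CHH minimum in ARF12 and ARF20.

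Of the 77 genes called higher in CHG in ddm1, 65 were below 20% in wt. Most genes are below that level, since only 956 of the 26635 tested in CHG were at 20% or more in wt. CML30, a calmodulin-like gene, had 58.7% in ddm1, 1.03% in poliv and 0.98% in wt. TBL21, a gene of the TRICHOME BIREFRINGENCE-LIKE family of cell wall acetyltransferases, had 55.9% in ddm1, 5.09% in poliv and 1.3% in wt. In CG, AGP14, which encodes an arabinogalactan peptide, had 53.1% in ddm1, 1.84% in poliv and 1.25% in wt.

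Genes that lost the mark in both mutants include AT1G75945, with no methylated CG call among 223 in ddm1 (up to 1.35%) or among 261 in poliv (up to 1.15%), against 92.9% in wt. WRKY43, a WRKY transcription factor, had 0.199% CHH in ddm1, 0.387% in poliv and 12.5% in wt. LURE1.5, of the LURE peptides that attract pollen tubes, had 2.69%, no methylated call among 263 (up to 1.14%), and 19.5%, and it has close paralogs that could share reads. Only-DDM1 genes in CHH include AT3G43153, with 2.46% in ddm1, 34.7% in poliv and 37.9% in wt from 2517, 1755 and 1074 calls. The overlapping genes AT4G22485 and AT4G22475 had 1.53% and 1.71% in ddm1, 32.5% and 26.2% in poliv and 38.4% and 33.9% in wt, and their values are not independent.

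Genes of the silencing pathways were next counted, beside the 6.03% of all genes called lower in CG, 2.8% in CHG and 0.0627% in CHH. Of 26 RdDM genes, 3 were lower in ddm1 in CG, none higher, and none was called in CHG or CHH. The 3 were NRPD1, DCL3, the Dicer that makes 24-nucleotide small RNAs, and CLSY1, which recruits Pol IV to its targets and is listed as CHR38. CLSY1 had 21.3% CG in ddm1, 47.2% in poliv and 46.1% in wt. The median difference of the list was -5.39 points, against -0.958 over all genes tested, but 18 of the 26 were methylated in CG in wt, and the 5196 CG-methylated genes of the neither class had a median difference of -5.71. Of 16 maintenance and heterochromatin genes, MET2 (listed as DMT2), a relative of the CG methyltransferase MET1, was lower in ddm1 in both CG and CHG, with 11.1% CG in ddm1, 51.5% in poliv and 40.6% in wt. DDM1 was the only one higher, in CHG. None of 7 genes of demethylation and CHG protection and none of 8 reference genes was called in any context.

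Among 13 loci known for silencing by methylation or for epialleles, 2 were lower in ddm1 in CG (6.03% of all genes) and in CHG (2.8% of all genes) and none was called in CHH. QQS, an orphan gene with natural epialleles, had 2.2% CG in ddm1, 62.6% in poliv and 61.7% in wt. RPP7 (AT1G58602), a disease resistance gene with a TE in its intron, had 2.45%, 52.3% and 47.7%. FWA, a homeodomain gene silenced through repeats at its promoter, had 9.84%, 20.4% and 20.7% and was below the 20-point minimum. SUP and BNS, both known to gain ectopic methylation in such mutants, had 11% and 9.78% CHG in ddm1, 0.87% and 1.2% in poliv and 0.556% and 0.718% in wt, and were also below the minimum.

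Cell identity genes were mostly bare in every group. Of 19 shoot meristem and floral identity genes, CLV3, the stem cell peptide gene whose promoter drives the reporter, was the one called. It was lower in ddm1 in CG, beside 6.03% of all genes. CLV3 had 0.662% CG in ddm1, 29.4% in poliv and 3.06% in wt, so poliv was above wt there. Reads of the reporter's copy of the promoter and of the gene itself may not be told apart. Of 17 markers of other cell types 15 had enough calls, and 2 were lower in ddm1 in CG, beside 6.03% of all genes. They were CAB3 (a chlorophyll-binding protein of green tissue) and VND7 (a regulator of vessel formation). Their CG levels were 13.6% and 3.55% in ddm1, 45.6% and 30% in poliv and 46.9% and 30.4% in wt. Methylation of a gene body does not show which cells were present.

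TEs of the study's heat lists are set here beside the shares of all TEs called lower in ddm1, 77% in CG, 63.7% in CHG and 1.59% in CHH. Its TEs with a heat-factor site were drawn from TEs still higher in expression in inflorescences of heated poliv at day 28. That list thus rests on expression in a mutant compared here and is not a list of all such sites. Of its members, 59 of 59 with enough calls were lower in ddm1 in CG and 56 of 58 in CHG. The median differences were -81.4 points in CG and -46.1 in CHG, against -72.6 and -34.8 over all TEs tested. All 59 and all 58 were methylated in wt, against 6343 of 7784 TEs tested in CG and 5422 of 7139 in CHG. Only-DDM1 TEs, 89.6% of the TEs methylated in wt in CG and 86.4% in CHG, had medians of -78.8 and -45.1 points, near those of the list. In CHH 1 of 61 TEs of this list was called lower. Of the study's heat-induced TEs, 31 of 39 were lower in CG, 29 of 38 in CHG and 1 of 46 in CHH. That is near the share of all TEs in CG and CHH. The study chose these on expression in seedlings and stem cells at day 7, in every genotype. Both lists thus come from expression in the same genotypes and are not independent of the study's material.

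ONSEN copies, the ATCOPIA78 retrotransposons known to be transcribed under heat, were lower in ddm1 in CG at 4 of the 5 with enough calls, beside 77% of all TEs. AT3TE54550 had 1.16% CG in ddm1, 90.2% in poliv and 87.4% in wt. AT1TE59755 had 6.25%, 88.2% and 90.9%. AT3TE89830 had 2.45%, 86.6% and 86.8%, and AT5TE15240 had 10.9%, 86.7% and 88%. The fifth, AT1TE24850, had 3.94%, 21.8% and 19.9%, a difference under 20 points. In CG these copies thus stayed near wt in poliv.

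In CHH no ONSEN copy of 8 was called between the mutants. AT1TE71045 had 0.716% in ddm1, 2.16% in poliv and 17.7% in wt and is of the both class. AT3TE92525 had 1.14%, 8.01% and 13.5% and is of the only-DDM1 class. In CHG, AT5TE15240 was of the both class, with 1.68% in ddm1, 11% in poliv and 30.9% in wt. The copies are nearly identical, and their reads may be split between them.

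The heated groups were not used to form the classes and show how far these hold in other libraries of the same genotypes. Chloroplast CHH was higher in the heated groups, with 0.805% in ddm1, 0.704% in poliv and 0.703% in wt. In control it was 0.450%, 0.404% and 0.390%, and the part of this background in the class changes was not tested. In CHG, 4371 of 4579 only-DDM1 TEs that were methylated in wt heat fell in the same class there, or 95.5%, against 83.3% of all TEs methylated in wt heat. For the only-Pol IV class it was 44 of 56, or 78.6%, against 1.54%, and for the both class 100 of 185, or 54.1%. In CG it was 1 of 5 only-Pol IV TEs and 24 of 37 of the both class. In CHH, 136 of 272 only-Pol IV TEs did so (50%, against 19.9% of all), 163 of 235 only-DDM1 TEs (69.4%, against 19.6%), 562 of 809 of the both class (69.5%, against 44.8%) and 117 of 189 of the neither class (61.9%, against 15.7%). Of the only-Pol IV TEs that changed class, 91 moved to both, 35 to neither and 10 to only DDM1. These shares leave out TEs under 10% in wt heat: of 370 only-Pol IV TEs with heated values 272 were above it, and of 1247 of the both class 809 were. For those 1247 the wt median was 13.3% in heat, against 17.8% over the whole class in control.

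The direction of the difference between the mutants held at nearly every TE called in CG and CHG. In CHG, 56 of 57 TEs called higher in ddm1 and 4490 of 4492 called lower had the same sign in heat. In CHH it was 233 of 284 called higher and 265 of 316 called lower, with median differences of 9.64 and -9.99 points in heat, against 13.5 and -13.9 in control. Among genes, 76 of 76 called higher and 738 of 738 called lower in CHG had the same sign in heat.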

How the data were processed

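Nuclei of 2 libraries per group were bisulfite sequenced. According to labels and methods, adapter trimming used Trim Galore 0.6.2, alignment and removal of duplicates used Bismark 0.22.2 with the TAIR10 build, methylation was called with methylpy, and bedtools 2.27 is named too. The deposited table holds, per feature, context and group, 2 whole counts of cytosine calls made by the authors, the methylated calls and the coverage. Its 18 columns of the fraction methylated were not used. Nothing read here says how the pair of libraries was joined into a value, so the replicate error is unknown.

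Levels were computed from the counts. Gene class and symbols came from the RefSeq table of TAIR10.1, where 37886 of 38386 nuclear gene identifiers matched, and its coordinates served only to find overlapping genes. No coordinates or sequences are given, since no genome of the files' build was used here. The p-value of Fisher's exact test is 2 times the smaller tail. Alternatives were a minimum of 100 calls, no difference minimum, statistics divided by a dispersion factor (1.45 to 3.24) estimated between heated and control columns of a genotype, random conversion of unmethylated calls up to the higher chloroplast level (seed 7), means weighted by calls, loss at 25% of wt, loss by level alone, and doubled wt minimums. Calling was tested on simulated data. Python 3.11.15, NumPy 2.4.6, SciPy 1.17.1, pandas 2.3.3 and matplotlib 3.10.9 were used.

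The loci named are the disrupted genes, per context and class the 5 with the largest differences each way, the 5 with the deepest loss in both mutants, the 5 with the highest level kept in all 3 groups, ONSEN copies and list members, of which the text gives a part. ARF12, ARF20, PRE5 and WRKY43, and the loci next to the 50% line, stand outside that rule and were chosen after their values were seen. Members and lists were chosen with earlier results of these data known.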

Additional observations from a re-analysis of the deposited data

Results flagged for a closer look

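The difference between ddm1 and poliv was tested for a change with heat at 91 named and called combinations of locus and context, with a z statistic of the difference of differences scaled for dispersion and adjusted over all loci of the context and class. It changed at 2 of them, both TEs on chromosome 1 in CHH. AT1TE42450 had a difference of -50.9 points in heat (0% in ddm1, 50.9% in poliv), against -86.6 in control (0% in ddm1, 86.6% in poliv), with an adjusted p of 0.00442. AT1TE49460 had -25.8 points in heat (19.7% in ddm1, 45.6% in poliv), against -59.3 in control (1.67% in ddm1, 60.9% in poliv), with an adjusted p of 0.0219. Both differences had the same sign in heat and control. Both TEs were named for their large control difference, and the test uses that same value. A smaller difference in heat can follow in part from that choice, so these p-values are a description. Over all TEs in CHH, 71 of 20152 passed this test, 55 with a higher and 16 with a lower value in heat.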

How the results depend on the processing

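No paired analysis was possible because the columns are pooled over the 2 libraries of each group, and for the same reason no library could be left out. Random matching of the background changed no call count by over 1.5 times, and no named call. Scaling for dispersion changed only the count of genes higher in CHH by over 1.5 times, to 3. Smaller drops in CHH left 217 of 305 TEs higher in ddm1, 257 of 330 TEs lower and 12 of 17 genes lower. The scaling ended 5 of the named calls, all in CHH: AT1TE47705, AT3G44140, AT1G77815, AT3G44261 and AT2G10020. Loss by level alone moved no class by over 1.5 times. With a minimum of 100 calls, TEs higher in ddm1 numbered 2 in CG, 24 in CHG and 191 in CHH. With no difference minimum, TEs higher numbered 36, 197 and 1749 in CG, CHG and CHH and TEs lower in CHH 4402, and for genes there were 624 (CG), 3636 (CHG) and 1077 (CHH) higher and 10816 (CG) and 857 (CHH) lower. Mean differences, ddm1 minus poliv, weighted by calls were -68.3, -40.8 and -2.91 points for TEs and -4.46, 0.225 and 0.0223 for genes, and the last 2 had the other sign. With a minimum of 100 calls they were -63, -34.6 and -0.758 for TEs and -5.32 and -0.558 for genes in CG and CHG. The TE classes at that minimum held 2 only Pol IV, 11 both and 289 neither in CG, 21 only Pol IV and 59 both in CHG, and 242 only Pol IV, 858 both and 167 neither in CHH. With loss at 25% of wt, they held 12 both and 1671 neither in CG, 60 both and 1628 neither in CHG, and 627 only Pol IV, 842 both and 477 neither in CHH. With doubled wt minimums they held 119 both in CHG, and 101 only DDM1, 99 only Pol IV, 549 both and 94 neither in CHH. In CHH there were 378 only-DDM1 TEs with loss at 25% of wt and 260 with a minimum of 100 calls. At 50 calls, levels carry wide counting intervals, so classes of shallow TEs are the least certain.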

Other observations

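Loci that are neither TEs nor protein-coding genes, such as pseudogenes, TE genes and non-coding RNAs, were also counted. Their mean CG level was 5.91% in ddm1, 16.4% in poliv and 16% in wt over 4522 loci, of which 701 were lower in ddm1 than in poliv and 10 higher. In CHG 399 of 4483 were lower and 24 higher. In CHH, 80 of 6243 were methylated in wt, and of these 22 lost the mark in ddm1 alone, 10 in poliv alone, 33 in both and 15 in neither.

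Loci with mitochondrial identifiers had a pooled CG level of 0.421% in ddm1, 5.79% in poliv and 6.84% in wt control, and a CHG level of 0.407%, 3.83% and 4.56%. In the heated groups CG was 0.63%, 3.24% and 4.19%. Whether all these calls stem from the mitochondrial genome itself was not tested. At chloroplast loci the CG level was 0.38%, 0.348% and 0.328% in the control groups.

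In CHH, chromosome 1 held 30.1% of the 372 only-DDM1 TEs, 21.2% of the 386 only-Pol IV TEs, 25.2% of the both class and 26.8% of the neither class, against 22.1% of the 20775 tested. No test was made. AT2G10020 had 75.2% CHH in wt control from 137 calls, and 0.671% in wt heat from 149 calls, while poliv had 39.3% and 48.1% and ddm1 had 0% (134 calls, up to 2.24%) and 1.68%.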
